A study of Mus musculus with 18 samples.

Results

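The 8 genes described here encode parts of the red cell membrane: the skeleton genes Sptb and Dmtn, the anchor genes Ank1, Epb42 and Slc4a1, and the surface protein genes Rhag, Rhd and Kel, whose human counterparts carry blood group antigens or stand beside them. They were chosen by gene name, 8 of the 55385 genes in the deposited tables, and all 8 were among the 18634 genes that passed the filter on low counts. RNA with poly(A) tails was sequenced from the spleens of 18 mice. The tested genotypes were Dp16, which carries an extra copy of a stretch of mouse chromosome 16 that matches part of human chromosome 21, and Dp16_2xIFNRs, which has the same extra stretch with the dosage of the interferon receptor genes set back to normal. WT mice were C57BL/6J. Each genotype had 6 animals, 3 females and 3 males, with 1 library per animal and no treatment given in the labels. The labels give a strain for WT alone. The age label read 17.1 to 18.0 under a tag of days after conception in mice that are called adult, and its unit is not interpreted here. None of the 8 genes lies on chromosome 16, so none has an extra copy by this design.

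The membrane of a red cell rests on a net of spectrin tetramers that meet at short actin filaments. Ankyrin ties the net to the anion exchanger known as band 3, and other proteins tie its junctions to glycophorin C and to the Rh proteins. Inherited loss of spectrin, ankyrin, band 3 or the protein encoded by EPB42 makes red cells spherical and fragile in people, and loss of the mouse counterparts causes anaemia. In adult mice the red pulp of the spleen both removes old red cells and makes new ones, and the messenger RNAs of these proteins build up in nucleated erythroblasts and persist in reticulocytes.

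Library totals ran from 33998427 to 53021480 counts. The 8 genes together took 0.290% to 0.407% of the counts in Dp16 libraries, 0.232% to 0.616% in Dp16_2xIFNRs libraries and 0.0273% to 0.274% in WT libraries. Their counts ran from 323 to 139481 per gene and library, so that counting error was small beside the differences between animals. The 4 interferon receptor genes of the interval were set beside the genotype labels. Ifnar2 averaged 138 ± 9.25 CPM (counts scaled to the size of the library) in Dp16, 91.2 ± 3.89 CPM in Dp16_2xIFNRs and 92.8 ± 4.19 CPM in WT (SD, n = 6 each). Of these genes 4 of 4 were called higher in Dp16 than in WT, and 4 of 4 lower in Dp16_2xIFNRs than in Dp16. In Dp16_2xIFNRs over WT 1 was called lower, Ifngr2, at 75.1 ± 7.20 CPM in Dp16_2xIFNRs and 98.1 ± 8.22 CPM in WT. Ifnar1 averaged 75.8 CPM in Dp16_2xIFNRs and 92.0 CPM in WT, and Il10rb 73.0 CPM in Dp16_2xIFNRs and 83.4 CPM in WT, both without a call. Gm42418, a gene model over ribosomal RNA sequence, took 0.691% to 5.51% of counts and exceeded 4% in 4 libraries, namely Dp16 samples 2 and 3, Dp16_2xIFNRs sample 5 and WT sample 4. Counts of calls against WT that change without these libraries are given both ways for the 8 genes, related gene lists and erythroid markers.

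For 5 of the 8 genes (Sptb, Epb42, Rhag, Rhd and Kel) the RefSeq promoter table of GRCm38.p6 held the sequence around the gene start, and these windows were searched on both strands for letters that red cell transcription factors are known to bind. A GATA match (GATA with A or T before it and A or G after it), the kind of element bound by the erythroid factor Gata1, was present in 5 of 5 windows of 250 bases before and 50 after the start, against 29.8% of all 32851 promoters. CCNCNCCC, an element of the Klf family, was present in 2 of 5 (Sptb and Rhd), against 49.5% of all promoters, and the E-box CAGATG in 1 of 5 (Epb42), against 17.2%. The Sptb window held 3 Klf matches, of which a pair overlapped. In Rhag, Rhd and Kel a GATA match began within the 60 bases before the start, a span chosen after the matches were seen, and 5.96% of all promoters have one there. The 100 bases before the RefSeq start of these 3 genes, which can differ from the start in the annotation used for gene positions, are shown because they hold those matches, written 5′ to 3′ on the strand of the gene with every match in capitals.
Rhag, chr17:40811049-40811148, plus strand: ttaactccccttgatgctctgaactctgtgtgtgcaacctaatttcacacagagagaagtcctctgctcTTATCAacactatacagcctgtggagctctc
Rhd, chr4:134864436-134864535, plus strand: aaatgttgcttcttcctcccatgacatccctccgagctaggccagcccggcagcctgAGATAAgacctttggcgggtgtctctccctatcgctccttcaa
Kel, chr6:41704326-41704425, minus strand: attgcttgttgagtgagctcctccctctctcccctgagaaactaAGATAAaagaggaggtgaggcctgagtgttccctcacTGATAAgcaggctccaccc
The match in Rhag began at base -31 counted from the start and read on the opposite strand, that in Rhd began at -43, and Kel held one at -56 and another at -19. A match is a run of letters and not a measured binding site.

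All 8 genes were higher in the spleens of Dp16 mice than in those of WT mice, by 3.25-fold (Dmtn and Ank1) to 4.07-fold (Rhag). The values below are RPKM, the authors' counts scaled by gene length (in kilobases) and by library size, given as the lowest, the median and the highest of the 6 animals, and each test is edgeR's quasi-likelihood test with Benjamini-Hochberg adjustment over all genes tested. In bulk tissue, fewer cells of a type and less RNA per cell cannot be told apart.

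In the skeleton itself, Sptb (ENSMUSG00000021061.15, chr12:76580488-76710547, minus strand, GRCm38) encodes the erythroid β-spectrin chain. It stood at 32.7, 46.8 and 54.9 RPKM in Dp16 spleens, 28, 35.7 and 80.1 RPKM in Dp16_2xIFNRs spleens and 4.36, 13.8 and 35.9 RPKM in WT spleens. Of the WT animals only sample 2 reached the range of the Dp16 animals, and all 6 Dp16 animals lay above the WT median. The log2 fold change was 1.71 ± 0.45 (SE) for Dp16 over WT (adjusted p = 0.00925) and 1.68 ± 0.45 for Dp16_2xIFNRs over WT (adjusted p = 0.0103). Dmtn (ENSMUSG00000022099.17, chr14:70601263-70636048, minus strand) encodes dematin, an actin-bundling protein of the skeleton's junctions. It stood at 29.1, 36.3 and 49.5 RPKM in Dp16, 26.9, 30.9 and 65.7 RPKM in Dp16_2xIFNRs and 3.65, 12.1 and 31.8 RPKM in WT. Dp16 samples 2 and 5 and Dp16_2xIFNRs samples 2 to 5 stood below WT sample 2, and every other Dp16 or Dp16_2xIFNRs animal stood above all WT animals. Dmtn differed by 1.70 ± 0.45 on the log2 scale in Dp16 over WT (adjusted p = 0.00999) and by 1.79 ± 0.45 in Dp16_2xIFNRs over WT (adjusted p = 0.00745).

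Among the anchors, Slc4a1 (ENSMUSG00000006574.15, chr11:102348824-102366203, minus strand) encodes band 3, which exchanges chloride for bicarbonate and holds the skeleton to the membrane. Its level was 293, 378 and 463 RPKM in Dp16, 232, 299 and 693 RPKM in Dp16_2xIFNRs and 23.8, 99.2 and 296 RPKM in WT. WT sample 2, the highest of its genotype, stood just above Dp16 sample 2 and above Dp16_2xIFNRs samples 3 to 5, and the other WT animals stood below every Dp16 and every Dp16_2xIFNRs animal. The fold was 3.65 in Dp16 over WT, with a 95% interval of 1.78 to 7.47 (log2 fold change 1.87 ± 0.48, adjusted p = 0.00904), and 3.71 in Dp16_2xIFNRs over WT (1.89 ± 0.49, adjusted p = 0.00831). Ank1 (ENSMUSG00000031543.18, chr8:22974844-23150497, plus strand) encodes ankyrin-1, the adaptor between spectrin and band 3. It measured 25.0, 35.3 and 39.6 RPKM in Dp16, 23.8, 27.6 and 56.7 RPKM in Dp16_2xIFNRs and 4.01, 10.2 and 26.1 RPKM in WT, again with WT sample 2 as the single WT animal inside the range of the others. Ank1 differed by 1.70 ± 0.40 in Dp16 over WT (adjusted p = 0.00503) and by 1.70 ± 0.40 in Dp16_2xIFNRs over WT (adjusted p = 0.00496). Epb42 (ENSMUSG00000023216.13, chr2:121017891-121037072, minus strand) encodes a transglutaminase-like protein without enzyme activity that binds both band 3 and ankyrin. It was the lowest of the 8 genes, at 20.8, 29.8 and 30.6 RPKM in Dp16, 17.3, 21.7 and 51.2 RPKM in Dp16_2xIFNRs and 1.69, 7.62 and 21.8 RPKM in WT. Dp16 sample 2 lay apart from the other Dp16 animals at the low end, and WT sample 2 overlapped with it and with Dp16_2xIFNRs samples 2 to 5. The log2 fold changes of Epb42 were 1.80 ± 0.48 for Dp16 over WT (adjusted p = 0.0103) and 1.83 ± 0.48 for Dp16_2xIFNRs over WT (adjusted p = 0.00921).

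Rhag and Rhd encode the Rh-associated glycoprotein, a membrane channel for ammonia, and its Rh partner, which in people carries the D antigen. Rhag (ENSMUSG00000023926.8, chr17:40811126-40840754, plus strand) stood at 50.1, 76.5 and 94.5 RPKM in Dp16, 48.5, 62.6 and 94.9 RPKM in Dp16_2xIFNRs and 6.66, 17.6 and 47.0 RPKM in WT. All 6 Dp16 and all 6 Dp16_2xIFNRs animals exceeded all 6 WT animals. It had the largest difference of the 8 genes in both comparisons, 2.02 ± 0.39 for Dp16 over WT (4.07-fold, 95% interval 2.27 to 7.28, adjusted p = 0.00138) and 1.99 ± 0.39 for Dp16_2xIFNRs over WT (adjusted p = 0.00147). Rhd (ENSMUSG00000028825.7, chr4:134864536-134896172, plus strand) measured 130, 164 and 204 RPKM in Dp16, 121, 151 and 254 RPKM in Dp16_2xIFNRs and 11.8, 49.6 and 135 RPKM in WT. WT sample 2 again overlapped with the lowest animals of both other genotypes, which were Dp16 sample 2 and Dp16_2xIFNRs samples 2 and 3. Rhd differed by 1.80 ± 0.45 in Dp16 over WT (adjusted p = 0.00723) and by 1.89 ± 0.45 in Dp16_2xIFNRs over WT (adjusted p = 0.00543).

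Kel (ENSMUSG00000029866.13, chr6:41686330-41704339, minus strand) encodes the Kell glycoprotein, a zinc endopeptidase that cleaves endothelin precursors and is linked to the Xk protein at the surface. It stood at 35.9, 53.8 and 82.7 RPKM in Dp16, 45.5, 48.8 and 107 RPKM in Dp16_2xIFNRs and 4.58, 19.0 and 44.3 RPKM in WT. All Dp16_2xIFNRs animals exceeded all WT animals, while Dp16 sample 5 fell below WT sample 2. Kel differed by 1.73 ± 0.46 in Dp16 over WT (adjusted p = 0.0105) and by 1.87 ± 0.47 in Dp16_2xIFNRs over WT (adjusted p = 0.00708).

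**Figure D1:**
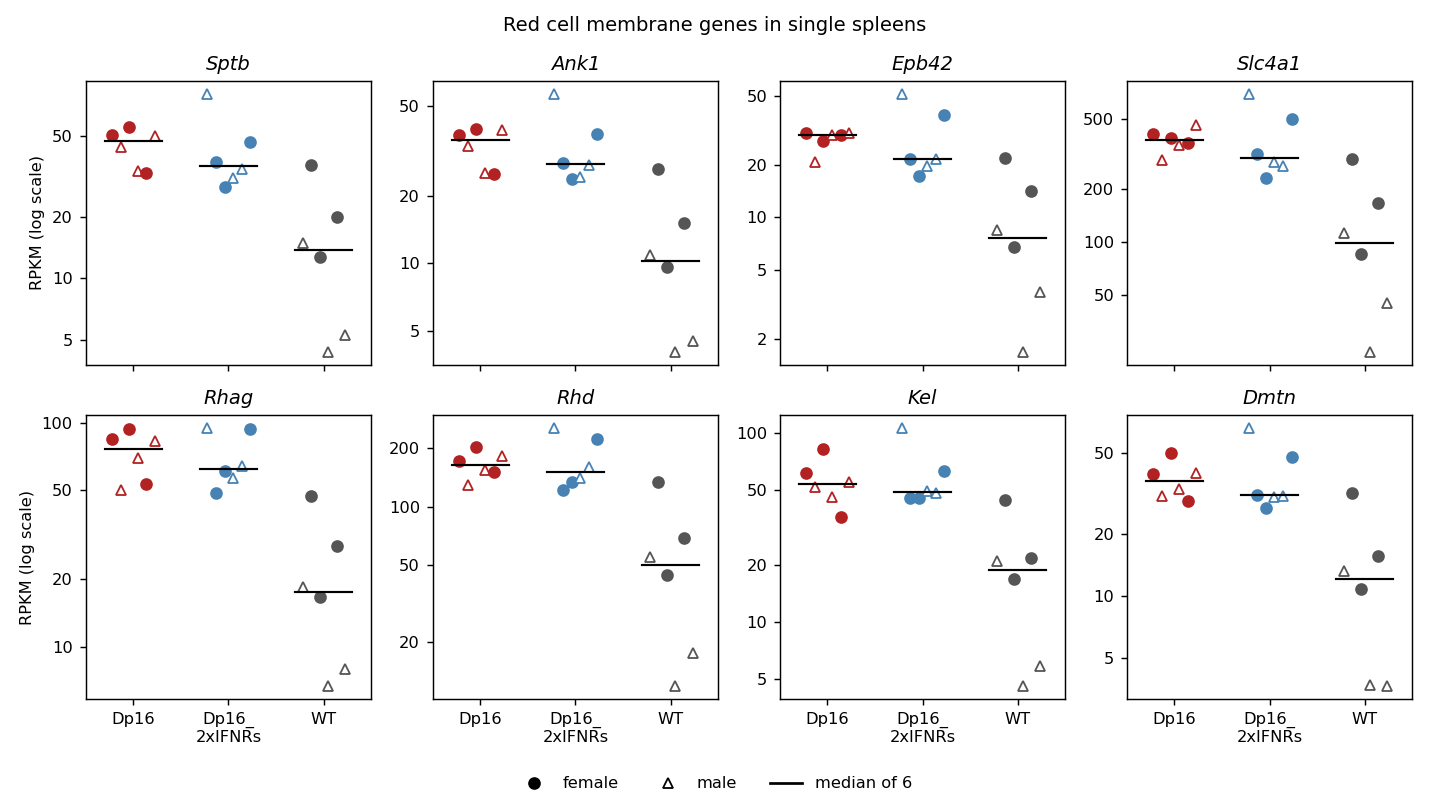
RPKM of each gene in every spleen (log axis, filled circles female, open triangles male, line at the median of 6), in Dp16, Dp16_2xIFNRs and WT. In Rhag all 12 Dp16 and Dp16_2xIFNRs animals sit above the 6 WT animals, and in the other genes WT sample 2 is the 1 WT animal that reaches the Dp16 range.

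Counted together, 8 of 8 genes were called higher in Dp16 than in WT, where 16.6% of all genes tested were called higher, and 8 of 8 in Dp16_2xIFNRs than in WT, where 17.3% were. Both comparisons use the same 6 WT libraries. Between the genotypes with the extra stretch, Dp16_2xIFNRs over Dp16 gave log2 fold changes of -0.04 (Rhag) to 0.13 (Kel), and edgeR and DESeq2 each called 0 of 8 genes, with 0 at an unadjusted p under 0.05 in edgeR. In this comparison each of these tools called 0.0215% of all genes lower and 0.0% higher. The 95% intervals of these differences reached down to 0.514-fold (Slc4a1) and up to 2.12-fold (Kel). With 6 animals per genotype, a difference within the interval of a gene was not excluded for that gene. Without overlap of single animals, Rhag alone of the 8 genes stood higher in Dp16 than in WT, as did 4.57% of all genes tested, and Rhag and Kel in Dp16_2xIFNRs, as did 4.49%.

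**Figure D2:**
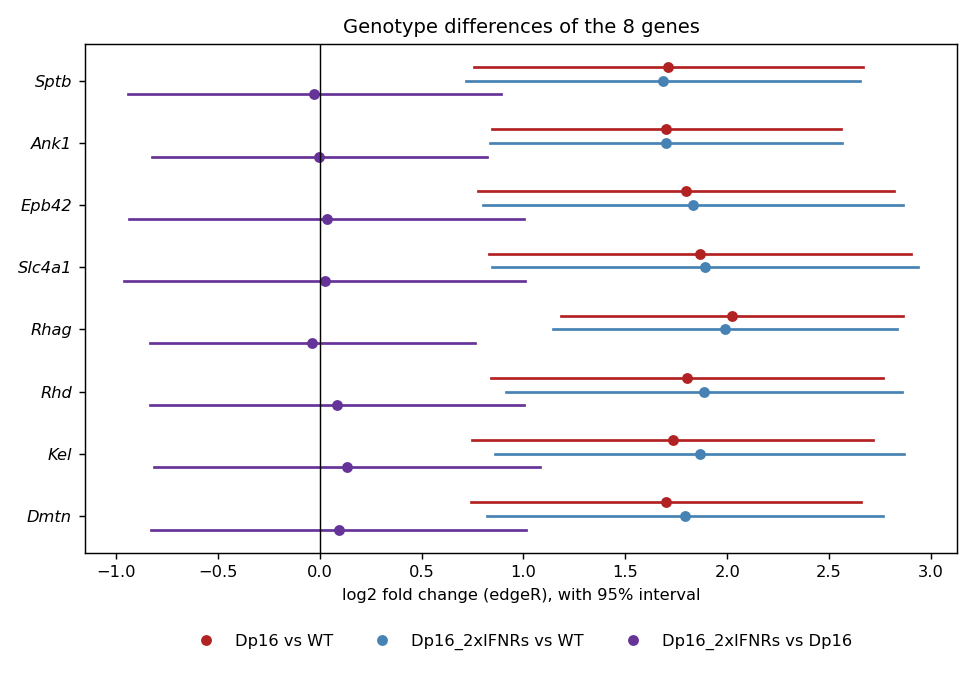
Log2 fold change of each gene with its 95% interval from edgeR, for Dp16 over WT, Dp16_2xIFNRs over WT and Dp16_2xIFNRs over Dp16. The intervals of both comparisons with WT lie above 0 for all 8 genes, and those of Dp16_2xIFNRs over Dp16 span 0.

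Some calls were lost when the libraries with much Gm42418 were left out. Without the 4 libraries above 4%, an alternative chosen after the data were seen, 4 of 8 genes remained called in Dp16 over WT, and Sptb (1.38, adjusted p = 0.0842), Dmtn (1.40, adjusted p = 0.0864), Kel (1.31, adjusted p = 0.0938) and Ank1 (1.42, adjusted p = 0.0581) kept their direction without a call. In Dp16_2xIFNRs over WT the same omission took away the call of Sptb alone (1.48, adjusted p = 0.0558). This omission also removed WT sample 4, the lowest WT library in 7 of the 8 genes. With all libraries kept and the share of Gm42418 as a term, also chosen after the data were seen, no call against WT was lost. Nor was any lost with Gm42418 and the mitochondrial genes left out. With the codes that some sample descriptions share as a block, Epb42 was not called in Dp16 over WT (2.87, adjusted p = 0.0529). In this fit, which had no sex term, the log2 fold changes of the 8 genes were larger. They reached 3.21 in Kel for Dp16 over WT and 2.94 in Rhd for Dp16_2xIFNRs over WT. WT samples 1, 2 and 5 shared their codes with no other library, so they did not bear on these values. The only WT and Dp16 libraries that shared a code were WT sample 4 and Dp16 sample 2.

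The spread between animals was widest in WT. The coefficient of variation of the RPKM values over 6 animals was 13.5% (Epb42) to 28.6% (Kel) in Dp16, 28.2% (Rhag) to 47.6% (Epb42) in Dp16_2xIFNRs and 70.1% (Ank1) to 81.6% (Slc4a1) in WT. The order of the libraries was shared by the 8 genes in WT and in part in Dp16_2xIFNRs, and differed between genes in Dp16. WT sample 2 was the highest WT library and Dp16_2xIFNRs sample 1 the highest Dp16_2xIFNRs library for 8 of 8 genes, and WT samples 2, 5, 1 and 3 held the first 4 places in that order for each gene. WT sample 4, a library with much Gm42418, was the lowest in 7 genes, and WT sample 6 in Dmtn. In Dp16 the highest library was sample 3 in 6 genes and sample 6 in 2, the lowest was sample 2 in 4 and sample 5 in 4, and sample 3 ranged from place 1 to place 5. On the log2 CPM scale, relative to each gene's mean over the 18 libraries, the 8 genes lay between -3.40 and -2.47 in WT sample 4, between 0.10 and 0.40 in WT sample 2 and between 1.12 and 1.59 in Dp16_2xIFNRs sample 1. Without WT samples 2 and 4 together, 8 of 8 genes were called higher in both comparisons with WT.

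**Figure D3:**
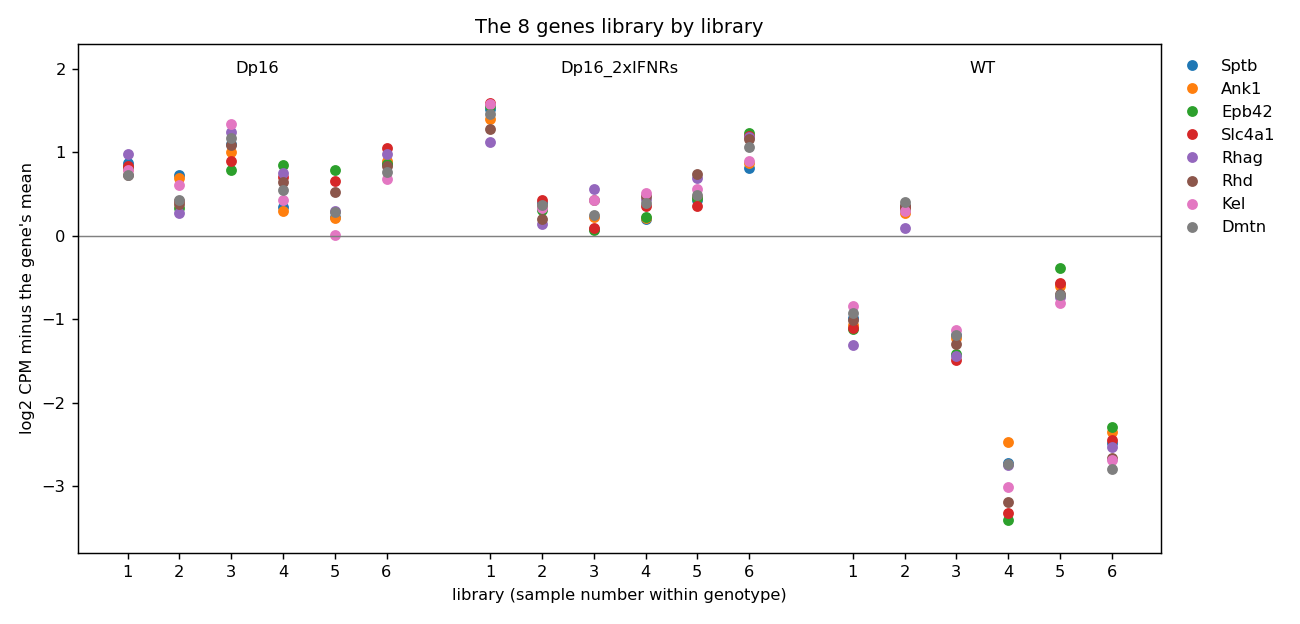
Log2 CPM of the 8 genes in each library minus the gene's mean over 18 libraries, by sample number within Dp16, Dp16_2xIFNRs and WT. In WT sample 4 the genes lie between -3.40 and -2.47 and in WT sample 2 between 0.10 and 0.40, a wider distance than that between any Dp16 libraries.

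Neither sex over all genotypes nor its interaction with genotype passed the test for any of the 8 genes. In Slc4a1, Dp16 females measured 363, 392 and 410 RPKM and Dp16 males 293, 357 and 463 RPKM, while WT females measured 85.2, 166 and 296 RPKM and WT males 23.8, 44.8 and 113 RPKM. The Dp16 females lay inside the range of the Dp16 males, and WT females and males overlapped, with the highest value in a female and the lowest in a male. Over all genotypes, female over male gave log2 fold changes of 0.39 (Ank1) to 0.52 (Rhag), adjusted p from 0.664 to 0.790. Here edgeR and DESeq2 called 0 of 8 genes, edgeR had 0 at an unadjusted p under 0.05, and 0.204% of all genes were called higher by edgeR and 0.559% by DESeq2. Within males, Dp16 over WT was 2.42 (Kel) to 2.75 (Slc4a1) and called for 8 of 8 genes, where 10.7% of all genes were called higher. Within females it was 1.10 (Ank1) to 1.45 (Rhag), adjusted p from 0.0706 to 0.245, called for 0 of 8 genes by edgeR with 3 at an unadjusted p under 0.05 (Rhag, Ank1 and Rhd), and for Rhag alone, 1 gene, by DESeq2, where 5.29% of all genes were called higher by edgeR and 10.4% by DESeq2. In Dp16_2xIFNRs over WT the range was 2.60 to 2.89 in males, with 8 of 8 called against 12.3% of all genes. In females it was 0.79 to 1.25, with 0 of 8 called by edgeR and by DESeq2, 1 (Rhag) at an unadjusted p under 0.05, against 3.63% of all genes by edgeR and 9.62% by DESeq2.

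The test of the difference itself, the female minus male difference in the genotype with the extra stretch against that in WT, gave -1.57 to -1.20 for Dp16 (unadjusted p 0.0567 to 0.159) and -1.89 to -1.58 for Dp16_2xIFNRs (unadjusted p 0.0220 to 0.0411). After adjustment edgeR and DESeq2 called 0 of 8 genes in either, edgeR called 0 of 8 with each library left out in turn, and it called 0.0% of all genes. In edgeR 0 of 8 genes had an unadjusted p under 0.05 for Dp16 and 8 of 8 for Dp16_2xIFNRs. These interactions rest on 3 animals a cell, and single WT animals moved them both ways. Without WT sample 1, a male, they were -2.38 to -1.89 for Dp16 and -2.83 to -2.17 for Dp16_2xIFNRs. Without WT sample 2, the highest WT female, they were -1.07 to -0.64 for Dp16 and -1.41 to -1.09 for Dp16_2xIFNRs. In males Dp16 over WT was 3.06 to 3.56 without WT sample 1, and 6 of 8 genes were called without WT sample 4 and 7 of 8 without WT sample 6. In females edgeR called 1 of 8 genes, Rhag, in Dp16 over WT without WT sample 1 or without WT sample 2, and in Dp16_2xIFNRs over WT without WT sample 2. Without WT samples 2 and 4 together, an omission chosen after the data were seen, it called 2 of 8 in females in Dp16 over WT and 1 of 8 in Dp16_2xIFNRs over WT. With all libraries, limma voom called 1 of 8 and 0 of 8 in the same order. Of 8 neutrophil markers 7 were higher in females than in males over all genotypes, as were 0 of 19 erythroid markers, and their part in these values was not tested.

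The mean levels kept the same order in all genotypes. By mean RPKM, Slc4a1 stood first, followed by Rhd, Rhag, Kel, Sptb, Dmtn, Ank1 and Epb42, in Dp16, in Dp16_2xIFNRs and in WT. By median RPKM, Kel (19.0) stood above Rhag (17.6) in WT. Slc4a1 exceeded Rhd, Rhd exceeded Rhag and Kel exceeded Sptb in 18 of 18 libraries, so these neighbours were distinct in every animal. Sptb exceeded Dmtn in 17 of 18 libraries, Dmtn exceeded Ank1 and Ank1 exceeded Epb42 in 15 of 18, and Rhag exceeded Kel in 14 of 18. Those neighbours changed places in single animals. Taken within each library, RPKM of Rhd as a share of that of Slc4a1 had a median over 6 libraries of 42.8% in Dp16, 47.1% in Dp16_2xIFNRs and 47.0% in WT, and the same median for Epb42 was 7.29%, 7.42% and 7.72% in the same genotypes.

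Ratios within a library asked whether some of the genes moved further than others, since a ratio of 2 genes does not depend on the scaling of the library. Of 21 ratios to Slc4a1, compared between genotypes by permuting the 12 libraries of a pair in all 924 ways (exact permutation test, two-sided, smallest possible p = 0.00216), 0 passed after adjustment over the 21. The log2 differences ran from -0.30 (Ank1, Dp16 over WT) to 0.17 (Kel, Dp16_2xIFNRs over Dp16). The smallest p was that of Sptb in Dp16_2xIFNRs over WT (-0.26, exact permutation p = 0.0433, adjusted p = 0.746), the 1 ratio with an unadjusted p under 0.05. Against Hbb-bs, the main adult β-globin gene, 0 of 24 ratios passed, and the smallest p was that of Rhag in Dp16 over WT (0.63, exact permutation p = 0.0779, adjusted p = 0.616). Partner genes were also compared by ratio. Rhd over Rhag was 2.33 ± 0.300 in Dp16, 2.45 ± 0.161 in Dp16_2xIFNRs and 2.49 ± 0.449 in WT (ratios of RPKM, SD, n = 6 each). Epb42 over Slc4a1 was 0.0745 ± 0.00689 in Dp16, 0.0741 ± 0.00454 in Dp16_2xIFNRs and 0.0780 ± 0.00572 in WT. The means of each ratio lay within 1 SD of each other. The ratio of Rhd to Rhag was not tested.

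**Figure D4:**
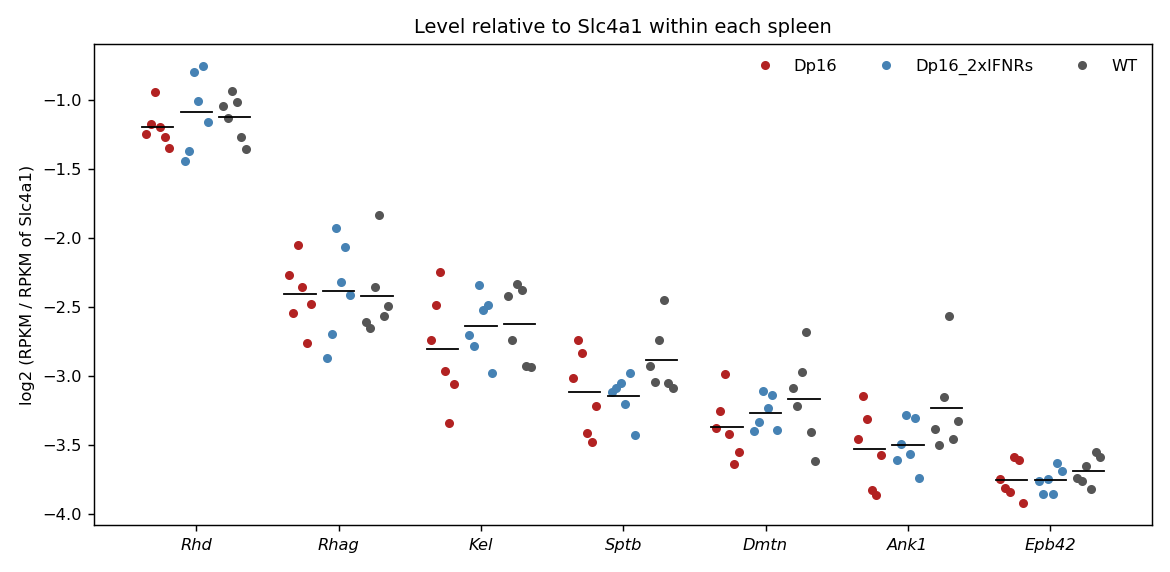
Log2 ratio of each gene's RPKM to that of Slc4a1 in every library of Dp16, Dp16_2xIFNRs and WT, with the mean of 6 as a line. The 3 genotypes overlap in all 7 genes, and the largest difference of means is -0.30 in Ank1 for Dp16 over WT.

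Profiles over the 18 libraries were compared by the root-mean-square difference of log2 CPM, each gene centred on its own mean. All libraries and genotypes enter this measure, so it describes likeness over these 18 libraries and is not tested. Sptb and Ank1 were the most alike pair of the 8 genes (0.0940), followed by Slc4a1 with Epb42 (0.106) and Kel with Dmtn (0.145). The least alike pair, Epb42 and Kel, differed by 0.347, while the median over 18633 genes was 1.16 to 1.34 for each of the 8. Outside the 8, the transcription factor gene Sox6 was near to Sptb (0.167) and Ermap, a red cell surface protein gene, to Ank1 (0.136). Trim10 (0.107) and Hemgn (0.165) were nearest to Epb42, and Hemgn (0.140) and Trim10 (0.140) to Slc4a1. Rhag was closest to the carbonic anhydrase gene Car2 (0.119), and Rhd to Btnl10 (0.121) and Cldn13 (0.123). Kel had Sox6 (0.173) and Btnl10 (0.187), and Dmtn had Sox6 (0.161). All of these neighbours were also called higher in Dp16 than in WT, by 1.64 (Sox6) to 1.99 (Cldn13) on the log2 scale.

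The rest of the membrane machinery moved in part. Of 17 other skeleton and anchor genes, all tested, 11 were called higher and 2 lower in Dp16 than in WT, where 16.6% of all genes were called higher and 13.2% lower. Their median log2 fold change was 0.98 against -0.01 over all genes. In Dp16_2xIFNRs over WT 12 were higher and 2 lower (median 0.94), where 17.3% and 14.2% of all genes were called. In Dp16_2xIFNRs over Dp16 edgeR called 0 of 17. The smallest p among those higher in Dp16 were those of the junction scaffold gene Mpp1 (1.02 ± 0.14), the calcium-activated potassium channel gene Kcnn4 (0.73 ± 0.13), the glycophorin C gene Gypc (1.19 ± 0.22) and Epb41, which joins spectrin, actin and glycophorin C (0.98 ± 0.18). The lower genes were Slc2a1, a glucose transporter (-0.65 ± 0.10), at 6.98, 9.57 and 10.5 RPKM in Dp16 and 13.0, 16.1 and 17.3 RPKM in WT, and Add3, the adducin of many tissues (-0.54 ± 0.09), at 25.8, 35.1 and 37.6 RPKM in Dp16 and 45.1, 49.1 and 66.3 RPKM in WT. For both, every Dp16 animal stood below every WT animal, as in 8.38% of all genes tested. Chosen after its value was seen, Tmod1 (1.75 ± 0.45, adjusted p = 0.00861), which caps actin filaments, changed by an amount like those of the 8 genes. Without the 4 libraries with much Gm42418, 9 of 17 were higher and 2 lower in Dp16 than in WT. Tmod1 (1.48, adjusted p = 0.0622) was then not called in Dp16 over WT. The same omission left 10 of 17 higher and 2 lower in Dp16_2xIFNRs over WT.

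Of 27 other blood group genes 26 were tested, and 13 were called higher and 4 lower in Dp16 than in WT, with a median of 0.21, where 16.6% of all genes were called higher and 13.2% lower. In Dp16_2xIFNRs over WT 13 were higher and 3 lower (Cd55, Slc44a2 and Bcam), where 17.3% and 14.2% of all genes were called. The share of lower genes was near that of all genes in both comparisons. The higher genes with the smallest p were the complement inhibitor gene Cd59a (1.21 ± 0.16), basigin (Bsg, 1.08 ± 0.16), the porphyrin transporter gene Abcb6 (1.41 ± 0.24) and the nucleoside transporter gene Slc29a1 (0.53 ± 0.10). The lower genes were Cd55, another complement inhibitor (-0.58 ± 0.10), the choline transporter-like gene Slc44a2 (-0.40 ± 0.08), the glycosyltransferase gene A4galt (-0.31 ± 0.11) and the laminin receptor gene Bcam (-0.26 ± 0.09). Cd55 stood at 29.8, 36.1 and 39.6 RPKM in Dp16 and 49.2, 50.3 and 79.5 RPKM in WT, with no overlap, as in 8.38% of all genes tested. A4galt was not called in Dp16_2xIFNRs over WT (-0.11, adjusted p = 0.499), nor in Dp16 over WT without the libraries with much Gm42418 (-0.36, adjusted p = 0.0691). Bcam was not called without those libraries in Dp16 over WT (-0.19, adjusted p = 0.222) or in Dp16_2xIFNRs over WT (-0.25, adjusted p = 0.0802). Without them 11 of the 26 were higher and 2 lower in Dp16 than in WT. For Dp16_2xIFNRs over WT, 13 were then higher and 2 lower. Xk, the partner of Kel and singled out after its values were seen, rose by 0.97 ± 0.24 (adjusted p = 0.00618), against 1.73 ± 0.46 in Kel, and the difference between them was not tested.

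Among paralogs that other tissues use, calls ran the other way in Dp16. Of 20 such genes 18 were tested, of which 0 were called higher and 7 lower in Dp16 than in WT by edgeR, with a median of -0.31, where 13.2% of all genes were called lower. The smallest p were those of the widely expressed spectrins Sptan1 (-0.66 ± 0.12) and Sptbn1 (-0.57 ± 0.11), of the sodium bicarbonate transporter gene Slc4a7 (-0.47 ± 0.10) and of the transglutaminase gene Tgm1 (-0.38 ± 0.11). Sptan1 measured 15.0, 17.9 and 21.2 RPKM in Dp16 and 24.7, 30.7 and 35.3 RPKM in WT, and Sptbn1 15.7, 20.1 and 24.9 RPKM in Dp16 and 26.4, 31.9 and 38.3 RPKM in WT. For both genes, no Dp16 animal reached the lowest WT animal, as in 8.38% of all genes tested. Sptb differed in the other direction and with overlap, since WT sample 2 stood above Dp16 samples 4 and 5. In Dp16_2xIFNRs over WT, where 14.2% of all genes were called lower, 8 were lower and 1 was higher, the ammonia transporter gene Rhcg (2.46 ± 0.91, adjusted p = 0.0442), named after its value was seen and not called without the libraries with much Gm42418 (adjusted p = 0.0582). In Dp16 over WT Rhcg stood at 2.37 without a call (adjusted p = 0.0597). Tgm1 was not called in Dp16_2xIFNRs over WT (-0.25, adjusted p = 0.0854). Without those libraries 4 of the 18 were lower in Dp16 than in WT, namely Sptan1, Sptbn1, Slc4a7 and Slc4a2, the last named after its value was seen. The same omission left 4 of the 18 lower and 0 higher in Dp16_2xIFNRs over WT. On the RPKM scale, where the median over all genes moved to -0.13 for Dp16 over WT, the named genes of the 3 lists kept their direction. Rhcg in Dp16_2xIFNRs over WT was smaller on that scale, at 0.82, and not called (limma on log2 RPKM with 0.1 added, adjusted p = 0.0504).

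**Figure D5:**
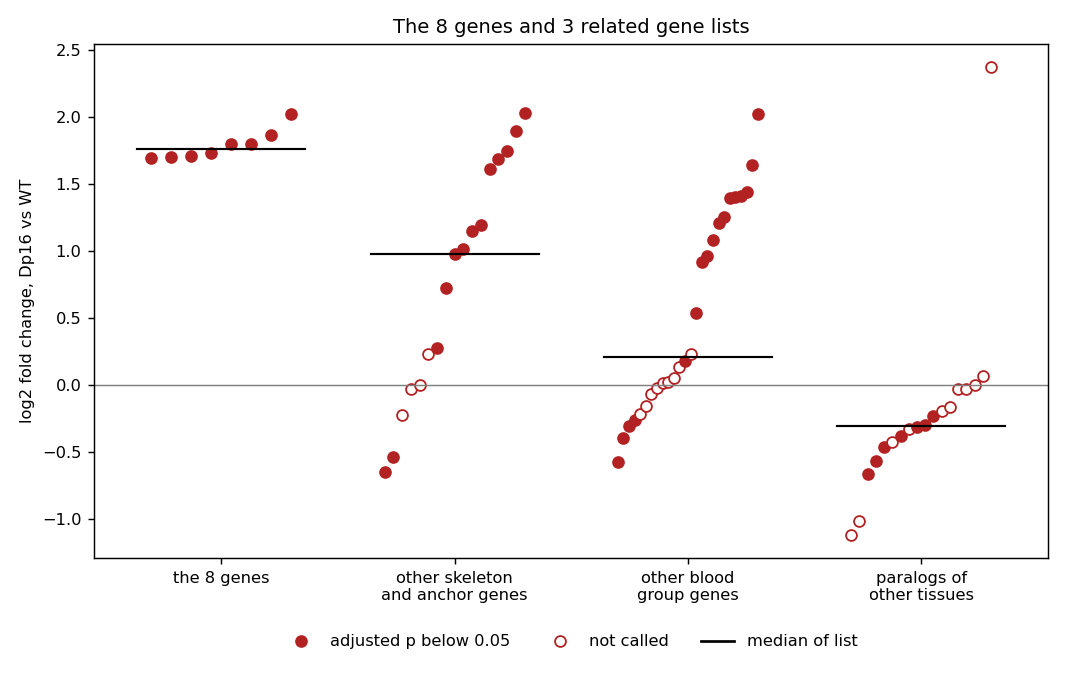
Log2 fold change of Dp16 over WT for the 8 genes, 17 other skeleton and anchor genes, 26 other blood group genes and 18 paralogs of other tissues, filled where the adjusted p is below 0.05, with the median of each list as a line. The medians of the last 3 lists are 0.98, 0.21 and -0.31.

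Markers of red cell precursors moved with the 8 genes. Of 19 erythroid markers, which hold the haemoglobin genes, Klf1, Gata1 and Epor among others, 19 were called higher in both comparisons with WT. Of all genes tested, 16.6% were called higher in Dp16 and 17.3% in Dp16_2xIFNRs than in WT. Without the libraries with much Gm42418, 17 of the 19 were called higher in Dp16 and 18 in Dp16_2xIFNRs than in WT. None of the 19 erythroid markers was at 0 in any genotype. Car2, Hemgn and Trim10, named above for their likeness, are among them. Their summed level was 22070 to 39544 CPM in Dp16, 21158 to 42583 CPM in Dp16_2xIFNRs and 6248 to 20927 CPM in WT. The median log2 fold change of the list was 1.58 in Dp16 over WT, beside 1.77 for the 8 genes. All 10 platelet markers were also called higher, with summed levels of 334 to 1130 CPM in Dp16, 343 to 722 CPM in Dp16_2xIFNRs and 199 to 376 CPM in WT. All 8 neutrophil markers were higher (2836 to 9823 CPM in Dp16, 3340 to 5478 CPM in Dp16_2xIFNRs, 421 to 1912 CPM in WT) and all 8 B cell markers lower (2305 to 2828 CPM, 2405 to 3087 CPM and 3530 to 5328 CPM in the same order). Of all genes tested, 13.2% were called lower in Dp16 and 14.2% in Dp16_2xIFNRs than in WT. The part of these cell types in the differences of the 8 genes was not tested.

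Skeletal muscle also transcribes Ank1, from its own promoter, and skeletal muscle markers were low throughout. Their summed level over 8 genes was 15.5 to 20.9 CPM in Dp16, 16.8 to 22.7 CPM in Dp16_2xIFNRs and 12.7 to 18.4 CPM in WT, with Myh4 at 0 in every library. Of the 6 tested, 2 were called higher in Dp16 than in WT (Mylpf and Actn3, named after their values were seen), where 16.6% of all genes were. Some gene models overlap those of the 8 genes. Plekhg3 meets the end of Sptb at 1 base on the opposite strand, Gm15816 (at most 48 counts) lies antisense within Ank1, and Gm37527 (at most 232 counts) lies on the same strand within Kel. The strand setting of the authors' counting is not given in the sources used here, so reads from a gene and its antisense partner may not have been kept apart.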

How the data were processed

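Poly(A) RNA of 18 spleens was sequenced in paired ends from strand-specific libraries, per the labels' protocols. The authors deposited unnormalized counts of reads per gene, which are whole numbers, and RPKM values. In the 11538 genes whose counts reached 100 everywhere, RPKM could be recomputed from the counts, the library totals and 1 length per gene, within a relative deviation of 1.91e-15. HISAT2 2.1.0 and HTSeq 0.6.1 stand in the submitters' processing notes beside SAMtools 1.5, FastQC 0.11.5, bcl2fastq and the genome build GRCm38. Positions come from GENCODE vM21 on GRCm38, matched by identifier for 54487 of 55385 genes (98.4%).

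The counts of all 18 libraries were fitted together by edgeR's quasi-likelihood method (edgeR 4.0.16, R 4.3.3), with TMM scaling, filterByExpr by genotype, and terms for genotype and sex. Genes were called at an adjusted p below 0.05 over 18634 genes. A fit of the 6 genotype and sex cells gave values within each sex and the interaction. CPM values computed here are the deposited counts scaled to the library total, and profiles use log2 CPM with a prior count of 2. Animals are separate per the titles. The lowest chi-square per degree of freedom between libraries of a genotype was 35.1, so none was a copy. A count of 0 allows up to 3 counts in a library, for counting error only, and the 8 genes had no 0. The script for the fits was tested on simulated data.

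The 8 genes and the gene lists were chosen with earlier results of these data known. Named besides the 8 genes were the 4 receptors, from each list the called genes with the 4 smallest p in each direction for Dp16 over WT and those called against the direction of the 8, and the 2 genes most like each of the 8 (predicted genes, clones and pseudogenes left out). Some genes that this rule names are not reported here. Exact permutation tests were two-sided and used SciPy 1.17.1. The sample numbers of the titles do not pair animals. Alternatives were DESeq2 1.42.0, limma 3.58.1 (voom, and RPKM with 0.1 or 1 added), other scalings, filters, terms, blocks and gene omissions, a threshold of 0.01, fits on 12 libraries and the omission of each library. Those chosen after seeing the data were the omission of the 4 libraries above 4% Gm42418, a term for its share, and the joint omission of WT samples 2 and 4.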

Additional observations from a re-analysis of the deposited data

Results flagged for a closer look

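In 3 of the 24 sets of 6 RPKM values (8 genes in 3 genotypes) 1 animal stood farther from the others than Dixon's 95% limit (a gap above 0.625 of the range), and chance alone marks about 1 in 20 sets. Sptb was at 80.1 RPKM and Kel at 107 RPKM in Dp16_2xIFNRs sample 1, the highest of their genotype. This animal was the highest of its genotype for all 8 genes, and these values share 1 library. Epb42 was at 20.8 RPKM in Dp16 sample 2, the lowest of its genotype and a library with much Gm42418.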

How the results depend on the processing

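With each library left out in turn, 8 of 8 genes were called higher in both comparisons with WT, with log2 fold changes of 1.47 to 2.37 for Dp16 over WT (adjusted p up to 0.0299) and 1.38 to 2.33 for Dp16_2xIFNRs over WT (adjusted p up to 0.0257). Over all alternatives the 8 genes kept their direction in both comparisons with WT, and 9 values lost the call. In Dp16_2xIFNRs over Dp16 the uncalled log2 fold change of each of the 8 genes took both signs, between -0.53 (Sptb) and 0.32 (Kel), with no call. The count for Dp16 over WT fell to 4 of 8 without the libraries above 4% Gm42418, and the cause was not tested, beyond 4 fewer libraries. At an adjusted p below 0.01, 6 of 8 were called in Dp16 over WT and 7 of 8 in Dp16_2xIFNRs over WT. Same-numbered libraries did not deviate together: the mean correlation of their deviations was 0.019 over 18 pairs, with 4 pairs above 0.1, and 6 of 18 libraries correlated best with their own number. With the replicate block 8 of 8 genes were called higher in both comparisons with WT. No other call on the 8 genes changed in the comparisons over both sexes or in the interaction. Calls within a sex did change between alternatives. In males, 6 of 8 were called in Dp16 over WT at an adjusted p below 0.01. The replicate block and the description code block were not run for the interaction. With 6 animals a genotype and a wide WT spread, differences under about 2-fold between Dp16_2xIFNRs and Dp16 lay within the intervals.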
